A study of Homo sapiens with 12 samples.

Results

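Endoplasmic reticulum-associated degradation (ERAD) removes proteins that fail to fold in the endoplasmic reticulum (ER). The genes described here are 37 components of this machinery, chosen by symbol and arranged in 7 steps, of the 20015 genes in the count table, and each of the 37 had 1 row there. In the first step lectins and mannosidases recognise a misfolded glycoprotein by its trimmed sugar chain. A membrane ubiquitin ligase, of which HRD1 with its partner SEL1L is the best studied, then channels the substrate towards the cytosol, where ubiquitin is added, the ATPase p97 pulls the protein out of the membrane and the proteasome degrades it. Several of these genes are known targets of the unfolded protein response (UPR), the transcriptional programme that cells start when unfolded proteins build up in the ER.

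The cells were HT29, a human colorectal adenocarcinoma line, and in all 4 groups they expressed the Cas9 nuclease and had received a lentiviral guide RNA. The guide was non-targeting in the groups called WT and directed against QRICH1 in those called QRICH1 KO, and the labels do not say whether the knockout cells are a clone or a mixed population. Each kind of cell was given the solvent DMSO or tunicamycin (Tm), which blocks N-linked glycosylation, at 0.3 µg/ml for 14 h. This made 4 groups of 3 libraries, named WT or QRICH1 KO with DMSO or Tm after them, which the series' design text calls biological replicates without saying whether they came from separate cultures.

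Total counts lay between 6856736 and 17861844 per library, so that 3 counts, the upper limit behind a count of 0, stood for 0.17 to 0.456 counts per 1000000 (CPM, scaled by TMM factors), counting error only. Libraries 3 of QRICH1 KO DMSO and QRICH1 KO Tm had counts for 15340 and 14813 genes, against 13124 to 14094 in the other libraries. QRICH1 itself was at 22.7 to 34.97 CPM in the WT DMSO libraries, 25.7 to 31.1 in WT Tm, 23.3 to 24.8 in QRICH1 KO DMSO and 19.2 to 26.8 in QRICH1 KO Tm. These ranges overlapped, and the difference between genotypes was not called (log2 -0.31 under DMSO and -0.36 under Tm, adjusted p = 0.577 and 0.352), so the transcript level did not tell the genotypes apart. Of 11 epithelial markers, 7 had a mean of at least 50 CPM in every group, among them KRT8, KRT18, EPCAM, KRT20 and LGALS4. VIL1 had group means of 49.4 to 86 CPM, while CDX1, CDX2 and GPA33 had means under 1 CPM in every group. The 18 markers of blood, vessel, fibroblast, muscle and glial cells summed to 3.01 to 6.44 CPM per library. In a bulk library fewer cells with a transcript and less of it per cell cannot be told apart.

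Together the 37 genes took a larger share of the counts after Tm in both genotypes, and under Tm the share was larger in WT than in QRICH1 KO cells. They held 0.315% to 0.325% of the counts in WT DMSO libraries and 0.723% to 0.753% in WT Tm libraries. In QRICH1 KO cells the shares were 0.309% to 0.329% under DMSO and 0.572% to 0.600% under Tm. The Tm libraries of the 2 genotypes did not overlap, and the DMSO libraries did. Without HERPUD1, the gene that rose most, the shares under Tm were 0.552% to 0.586% in WT and 0.452% to 0.475% in QRICH1 KO, and they did not overlap either. These sums weigh abundant genes most. The most abundant of the rest under Tm were VCP, with means of 1915 CPM in WT and 1618 in QRICH1 KO, and HM13, with 1670 and 1066.

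**Figure D1:**
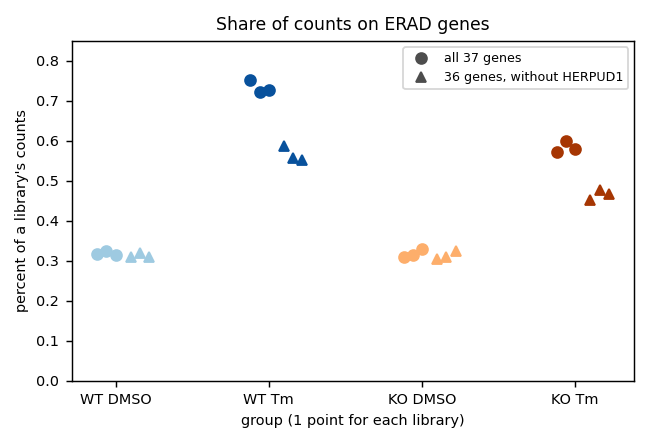
Share of each library's counts, in percent (y axis from 0), that fell on the 37 ERAD genes (circles) or on the 36 without HERPUD1 (triangles), with 1 point for each library of the 4 groups (x axis). The WT Tm libraries lie at 0.723% to 0.753%, the QRICH1 KO Tm libraries at 0.572% to 0.600% and all DMSO libraries between 0.309% and 0.329%.

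In WT cells Tm raised 18 of the 35 ERAD genes that could be tested and lowered none. Genes were tested with edgeR's quasi-likelihood test, adjusted over all 11323 genes that passed the filter on low counts and called at an adjusted p under 0.05. Over all genes 12.6% were called higher and 11.1% lower, and the median log2 fold change was -0.02 against 0.46 for the 35 ERAD genes. The change was at least 2-fold for 12 of them. All 3 Tm libraries lay above all 3 DMSO libraries for 20 ERAD genes and below them for 2, HERPUD2 and NPLOC4, against 19.0% and 18.5% of all genes. DERL3 and FBXO6 did not pass the filter. DERL3, the derlin typical of secretory cells, had at most 4 counts in any library and FBXO6, which binds glycans for a cytosolic ubiquitin ligase, had at most 2.

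The recognition step rose nearly as a whole, with 5 of 6 genes called. ERLEC1, a lectin that binds trimmed glycans, was at 44.6, 35.7 and 40.6 CPM in WT DMSO libraries 1 to 3 and at 216.9, 186.7 and 199.8 CPM in WT Tm (5.01-fold, log2 2.33, SE 0.119, adjusted p = 4.55e-11). OS9, the second such lectin, was at 57.6, 56.4 and 46.6 CPM under DMSO and at 137.4, 146.1 and 136.7 CPM under Tm (2.62-fold, log2 1.39, SE 0.114, adjusted p = 3.6e-08). For both lectins every Tm library lay far above every DMSO library. EDEM1, which speeds the trimming of mannose from misfolded glycoproteins, was at 7.76, 4.57 and 7.74 CPM under DMSO and at 31.1, 20.4 and 23.7 CPM under Tm (3.82-fold, adjusted p = 1.35e-05). Its relatives EDEM2 and EDEM3 rose 2.74-fold and 2.77-fold. MAN1B1, an ER mannosidase, did not pass the test, with 74.0 ± 11.1 CPM under DMSO and 67.7 ± 6.89 CPM under Tm (SD, n = 3; log2 -0.13, 95% interval -0.45 to 0.20). Its DMSO and Tm libraries overlapped.

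The HRD1 complex held the largest rises. HERPUD1, a short-lived membrane protein that joins the HRD1 complex, was at 61.6, 51.0 and 60.1 CPM in WT DMSO and at 1701, 1940 and 1828 CPM in WT Tm. This was a 31.7-fold rise (log2 4.99, SE 0.128, adjusted p = 1.31e-14). SEL1L, the adaptor that holds the complex together, was at 11.2, 11.6 and 13.8 CPM under DMSO and at 151.0, 97.7 and 118.1 CPM under Tm (9.98-fold, log2 3.32, SE 0.184, adjusted p = 1.48e-10). SYVN1, which encodes HRD1, rose 8.27-fold, from 8.05 ± 2.03 to 64.9 ± 12.9 CPM (SD, n = 3). Every Tm library of the ligase and of its adaptor lay above every DMSO library. Of the derlins, membrane proteins that form part of the exit channel, DERL2 rose 3.93-fold and DERL1 2.21-fold. HERPUD2, the paralog of HERPUD1, was at 21.6, 27.6 and 22.6 CPM under DMSO and at 16.4, 18.5 and 18.7 CPM under Tm. All 3 Tm libraries were below all 3 DMSO libraries, but HERPUD2 did not pass the test (log2 -0.43, SE 0.167, adjusted p = 0.0725).

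The promoters were searched for the DNA elements through which the UPR acts, because many of these genes moved together. The elements, their letters on either strand, and the factors known for them were the ER stress response element (ERSE, CCAAT and CCACG with 9 bases between them, bound by ATF6 with NF-Y), ERSE-II (ATTGG and CCACG with 1 base between them), the core of the XBP1 element (UPRE, TGACGTGG) and a core of the element bound by ATF4 with C/EBP partners (CARE, TGATG and AA with 1 base between them). RefSeq start sites on GRCh38.p14 were given for 28 of the 37 genes, and the 250 bases before each start were searched. The complete ERSE was found in none of the 28 and in 0.074% of 35116 promoter windows of all genes. ERSE-II was found in HERPUD1 alone, and in 0.0513% of all windows. The ERSE without its last base (ending in CCAC), a form chosen after the matches had been seen, was also found in HERPUD1 alone, and in 0.282% of all windows. The UPRE core was found in UBE2J1 and VCP (0.612% of all windows) and the CARE core in HERPUD1 (3.14%). The piece CCACG lies within the ERSE, the ERSE-II and, on the opposite strand, the UPRE core. It was found in 18 of the 28 genes, counting a match in any of their 33 windows, and in 33.5% of all windows. Members are counted by gene and the background by window, so the shares are not on the same scale.

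These sequences are shown because they hold the matches beside some of the responses described here, and the 2 of UBE2J1 and VCP were picked after the matches had been seen. They are printed 5′ to 3′ on the strand of the gene, with capitals for the matched letters. The stretches called upstream end just before the start of the gene in the GENCODE annotation. The HERPUD1 and VCP sites lie before the RefSeq start but inside the GENCODE gene. That gene starts at 56932048 for HERPUD1 and, on the minus strand, at 35073249 for VCP. The first HERPUD1 stretch (chr16:56931892-56932047, plus strand) holds the CARE core on the opposite strand, at -176 to -169 counted from the RefSeq start, and the ERSE-II at -117 to -107. The second (chr16:56932053-56932082) holds the ERSE without its last base, at -83 to -66. The UBE2J1 stretch (chr6:89352849-89352972, minus strand) holds the UPRE core on the opposite strand, at -231 to -224, and the VCP site (chr9:35072796-35072825, minus strand) holds it at -189 to -182.
HERPUD1 upstream: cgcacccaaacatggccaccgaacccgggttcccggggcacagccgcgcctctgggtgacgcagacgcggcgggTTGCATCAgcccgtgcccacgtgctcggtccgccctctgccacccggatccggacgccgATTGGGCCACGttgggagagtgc
HERPUD1 site: cctcagCCAATGGGCGGCAGCCACagagcg
UBE2J1 upstream: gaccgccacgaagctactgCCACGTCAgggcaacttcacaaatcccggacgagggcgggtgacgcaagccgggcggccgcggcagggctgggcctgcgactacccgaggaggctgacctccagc
VCP site: ttgcggccaatTGACGTGGcgttactaggc
The 3 genes with a match rose with Tm in WT cells, as did 11 of the 24 tested genes that had none of the ERSE-II, UPRE and CARE matches. A match is a run of letters and says nothing of binding.

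The other membrane ligases and their partners changed little, with 3 of 7 genes called and none by 2-fold. RNF5, a ligase that acts early on membrane substrates, was at 12.8, 10.8 and 11.8 CPM in WT DMSO and at 17.9, 17.9 and 17.8 CPM in WT Tm (1.52-fold, log2 0.61, SE 0.183, adjusted p = 0.0215). RNF185, its close relative, was at 12.3, 12.4 and 11.6 CPM under DMSO and at 18.3, 20.1 and 15.7 CPM under Tm (1.5-fold, adjusted p = 0.0145). RNF139, a ligase of the ER membrane also known as TRC8, rose 1.36-fold. All 3 of these ligases had Tm libraries above every DMSO library, at smaller folds than SYVN1. JKAMP (log2 0.36, adjusted p = 0.157), ERLIN1 (log2 -0.18), ERLIN2 (log2 -0.05) and TMUB1 (log2 -0.01) did not pass the test.

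Of the ubiquitin-conjugating enzymes, UBE2J1, which works with HRD1, had the largest rise. It was at 33.9, 34.1 and 42.3 CPM in WT DMSO and at 145.7, 119.2 and 142.8 CPM in WT Tm (3.69-fold, log2 1.88, SE 0.124, adjusted p = 1.72e-09). AUP1, a membrane protein that recruits UBE2G2, was at 93.4, 113.9 and 99.9 CPM under DMSO and at 126.1, 147.8 and 132.1 CPM under Tm (1.32-fold, log2 0.40, SE 0.121, adjusted p = 0.0217). The 3 other enzymes, UBE2J2 (log2 -0.01), UBE2G1 (log2 -0.35) and UBE2G2 (log2 -0.22), did not pass the test, with adjusted p from 0.171 to 0.978. For each of these 3 the DMSO and Tm libraries overlapped.

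Among p97 and its cofactors, 2 of 6 genes rose, both by less than 2-fold. VCP, which encodes p97, was at 1390, 1223 and 1019 CPM in WT DMSO and at 1830, 2101 and 1815 CPM in WT Tm (1.58-fold, log2 0.66, SE 0.123, adjusted p = 0.000608). UBXN4, which anchors p97 at the ER membrane, was at 71.4, 85.2 and 80.2 CPM under DMSO and at 123.2, 107.3 and 140.3 CPM under Tm (1.56-fold, log2 0.64, SE 0.12, adjusted p = 0.000621). Their Tm libraries lay above all their DMSO libraries. UFD1 and NPLOC4, the paired adaptor that hands ubiquitinated proteins to p97, gave log2 values of 0.19 (adjusted p = 0.283) and -0.30 (adjusted p = 0.0579). FAF2 (log2 0.07, or -0.11 when counts were scaled by their totals alone) and UBXN8 (log2 0.46, adjusted p = 0.0951) were not called either.

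None of the 3 tested genes that act on the substrate in the cytosol was called. NGLY1, which strips glycans from extracted proteins, was at 28.3, 23.7 and 25.5 CPM in WT DMSO and at 33.3, 28.4 and 27.4 CPM in WT Tm (log2 0.21, 95% interval -0.12 to 0.54). RAD23B, a shuttle to the proteasome, was at 8.98, 8.04 and 8.48 CPM under DMSO and at 9.82, 10.6 and 8.67 CPM under Tm (log2 0.20, 95% interval -0.25 to 0.65). The libraries of the groups overlapped for both. UBQLN1, a second shuttle, gave a log2 value of 0.19 (95% interval -0.08 to 0.46). HM13, the signal peptide peptidase of the ER membrane, was at 401.4, 364.6 and 370.0 CPM under DMSO and at 1651, 1877 and 1482 CPM under Tm (4.41-fold, log2 2.14, SE 0.11, adjusted p = 4.89e-11). RHBDD1, a rhomboid protease of the same membrane, was at 9.25, 6.88 and 7.37 CPM under DMSO and at 10.9, 11.3 and 10.2 CPM under Tm, which did not pass the test (log2 0.48, SE 0.187, adjusted p = 0.0705). So of the 2 intramembrane proteases only HM13 was called, although the RHBDD1 libraries did not overlap.

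**Figure D2:**
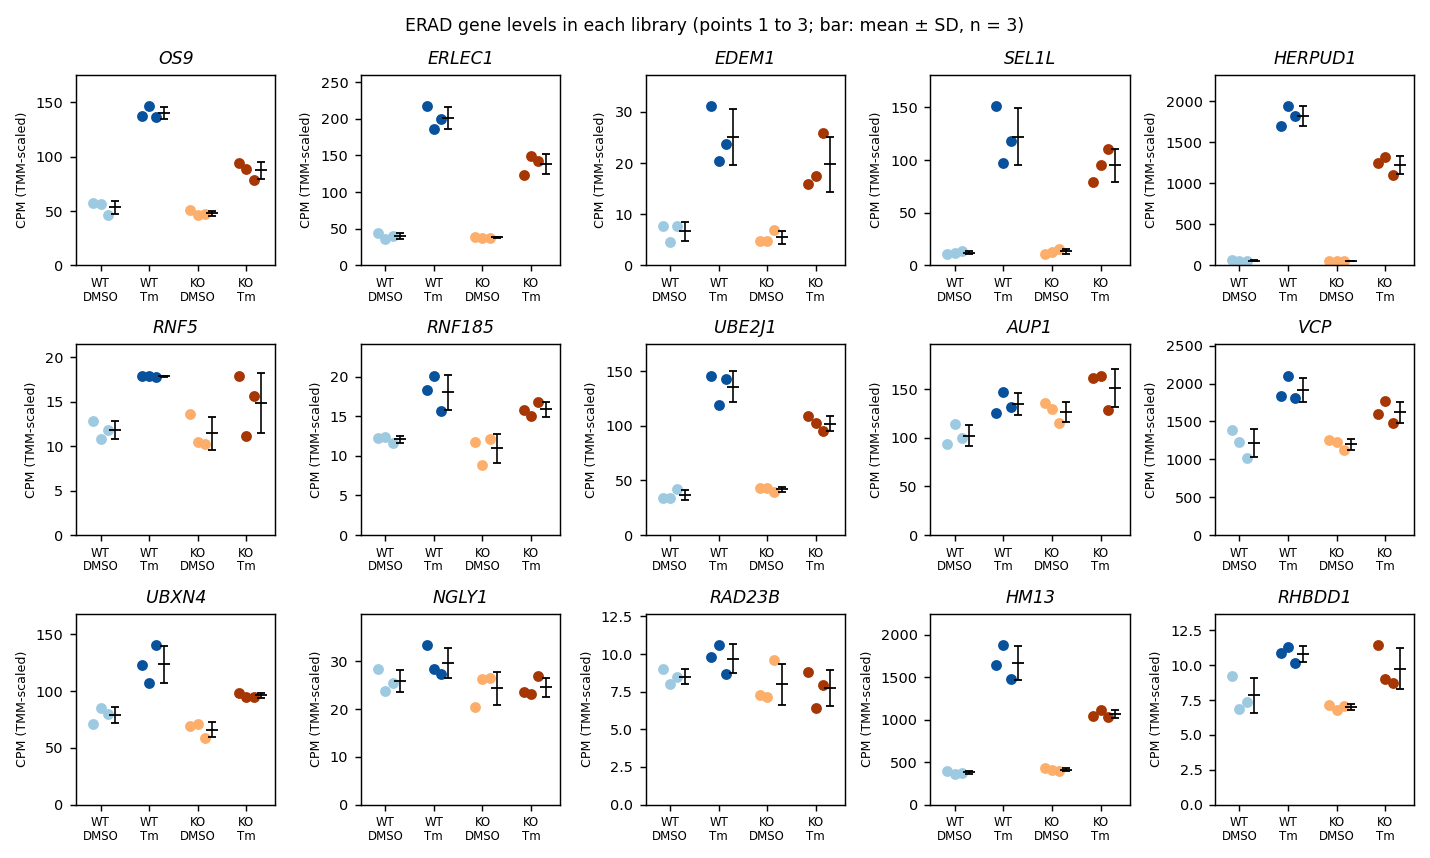
Level of 15 ERAD genes in TMM-scaled counts per 1000000 (CPM, y axes from 0) in libraries 1 to 3 of each group (x axes), with the mean and SD of the 3 libraries as a bar. HERPUD1 moves from 51.0 to 61.6 CPM in WT DMSO to 1701 to 1940 CPM in WT Tm, and HM13 from 364.6 to 401.4 CPM to 1482 to 1877 CPM.

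The calls differed in how firmly they held. Under all 21 alternative settings, which include leaving out each library, 14 of the 18 genes stayed called in WT, and the other 4 were RNF5, RNF139, RNF185 and AUP1, the genes with the smallest rises. Each of these 4 lost its call when counts were scaled by their totals alone. RNF5 also lost it without WT DMSO library 2 (adjusted p = 0.0906), WT DMSO library 3 (0.0518) or WT Tm library 2 (0.053). RNF139 lost it without WT DMSO library 1 (adjusted p = 0.0774) or 2 (0.0518) or WT Tm library 1 (0.0525) or 3 (0.0868). RNF185 lost it without WT Tm library 2 (adjusted p = 0.0718), and AUP1 without WT DMSO library 1 (0.082) or 3 (0.061) or WT Tm library 2 (0.0985).

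Per kilobase of exon, the order of the genes changed with Tm. In WT DMSO cells VCP stood highest at 223 CPM per kb, followed by AUP1 at 38.9, DERL1 at 35.1 and HM13 at 35.1. In WT Tm cells HERPUD1 reached 354 CPM per kb and VCP 352, followed by HM13 at 155, ERLEC1 at 77.6 and DERL1 at 77.6. HERPUD1 thus moved from 11.2 CPM per kb to the level of VCP. SEL1L and SYVN1, despite their large folds, were at 12.8 and 11.8 CPM per kb in WT Tm. Lengths are of all exons in GENCODE 29 joined together, which overstates the length of most transcripts.

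In QRICH1 KO cells Tm raised 16 of the 35 genes and lowered none, while 9.09% of all genes were called higher and 6.53% lower. The median log2 fold change of the 35 was 0.41, against -0.0039 over all genes, and 9 changed by at least 2-fold. Libraries did not overlap for 19 genes higher and 3 lower with Tm, against 16.9% and 15.5% of all genes. By step, 5 of 6 recognition genes, 5 of 6 tested genes of the HRD1 complex, 2 of 7 other ligases and partners, 1 of 5 conjugating enzymes with AUP1, 2 of 6 of p97 and its cofactors, none of 3 cytosolic genes and 1 of 2 proteases were called. All 16 were also called in WT cells. RNF5 (log2 0.38, adjusted p = 0.169) and AUP1 (log2 0.25, adjusted p = 0.173) were called in WT alone, and their difference between genotypes was not called.

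HERPUD1 again rose most, from 53.7, 53.5 and 53.7 CPM in QRICH1 KO DMSO to 1254, 1324 and 1105 CPM in QRICH1 KO Tm (22.9-fold, log2 4.52, SE 0.125, adjusted p = 4.87e-14). SEL1L was at 11.2, 13.0 and 15.8 CPM under DMSO and at 79.3, 95.4 and 110.3 CPM under Tm (7.13-fold, log2 2.83, SE 0.178, adjusted p = 1.58e-09). SYVN1 rose 4.99-fold, from 11.4 ± 2.34 to 56.9 ± 9.05 CPM (SD, n = 3). HERPUD1, SEL1L and SYVN1 thus had the largest folds in both genotypes. ERLEC1 rose 3.62-fold, EDEM1 3.6-fold, DERL2 2.81-fold, HM13 2.58-fold and UBE2J1 2.43-fold. EDEM2 rose 1.92-fold, DERL1 1.88-fold and OS9 1.81-fold, below the 2-fold mark that these genes had passed in WT. VCP rose 1.35-fold (adjusted p = 0.0226) and UBXN4 1.46-fold (adjusted p = 0.00423).

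In QRICH1 KO cells 12 of the 16 genes stayed called under all 21 alternatives, and EDEM3, RNF139, RNF185 and VCP did not. Without both QRICH1 KO libraries 3, which had counts for more genes, 13 were called. EDEM3, at 7.63, 14.3 and 21.6 CPM under DMSO and at 22.3, 29.97 and 40.5 CPM under Tm, varied most between libraries. It lost its call without QRICH1 KO DMSO library 1 (adjusted p = 0.0516) or 2 (0.0542) or QRICH1 KO Tm library 3 (0.0842). VCP lost it without QRICH1 KO DMSO library 2 (adjusted p = 0.0651) or 3 (0.0664) or QRICH1 KO Tm library 2 (0.106), and without both QRICH1 KO libraries 3 (0.0606). RNF139 lost it without WT DMSO library 2 (adjusted p = 0.0535), QRICH1 KO DMSO library 1 (0.0849) or 2 (0.183), or QRICH1 KO Tm library 2 (0.115) or 3 (0.113), and RNF185 without QRICH1 KO DMSO library 2 (0.156) or any one QRICH1 KO Tm library (0.0556 to 0.103). Both also lost it without both QRICH1 KO libraries 3 (0.071 and 0.0866). With counts scaled by their totals alone EDEM3 (adjusted p = 0.0654), RNF139 (0.245) and RNF185 (0.1) were not called. RNF139 was not called with upper-quartile factors (0.0542) either. RNF185 also lost its call without a filter on low counts (0.0598) and in a fit to the 2 groups compared (0.0574).

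**Figure D3:**
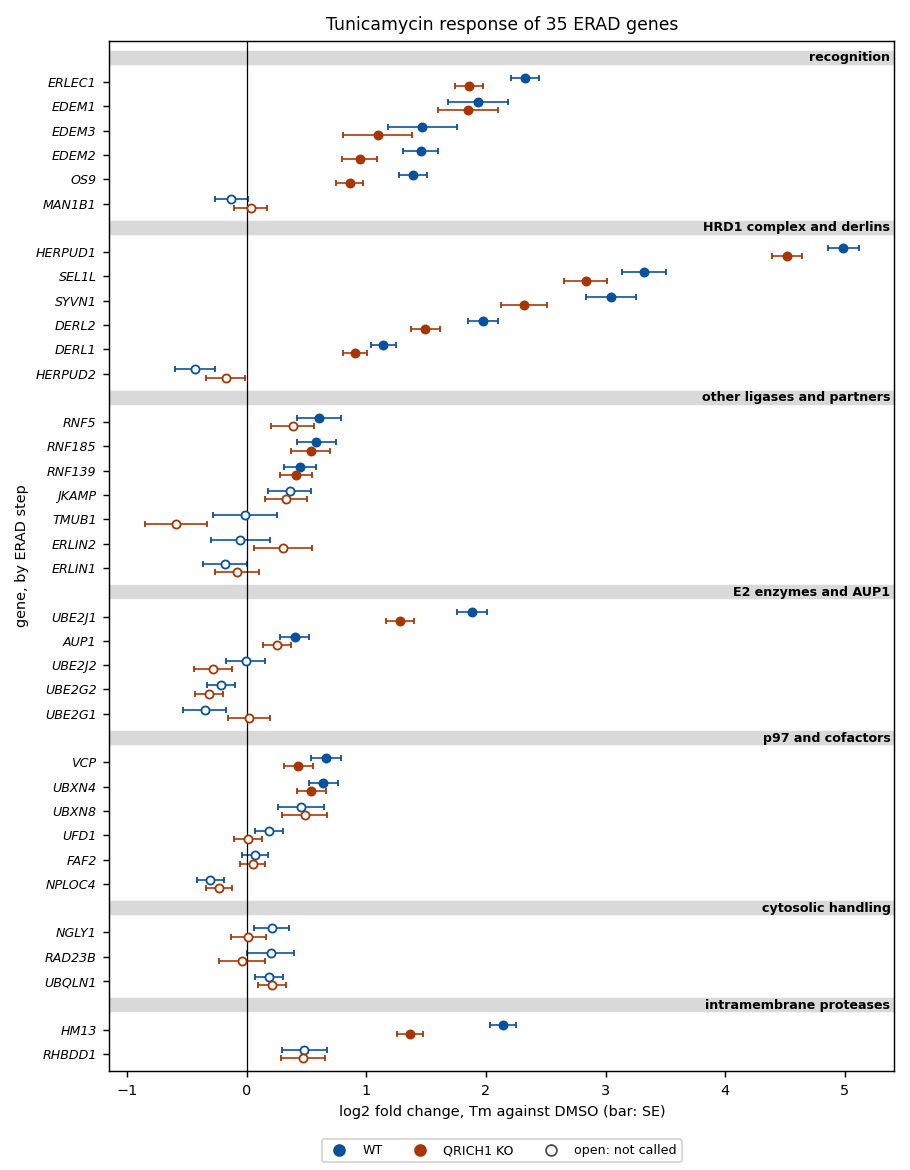
Log2 fold change of Tm against DMSO (x axis, bars give the SE) for the 35 tested ERAD genes, grouped by step (y axis), in WT (blue) and QRICH1 KO (red) cells, with open points for genes that were not called. HERPUD1, SEL1L and SYVN1 lie farthest to the right in both genotypes, at log2 4.99, 3.32 and 3.05 in WT and 4.52, 2.83 and 2.32 in QRICH1 KO.

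The direct comparison of the genotypes under Tm called 4 ERAD genes lower in QRICH1 KO and none higher. Over all genes 1.17% were called, 0.760% lower and 0.406% higher. The 4 were OS9, HM13, HERPUD1 and ERLEC1, which also rose with Tm in both genotypes, and this comparison shares its Tm libraries with both Tm responses. The median log2 fold change of the 35 genes was -0.24, against 0.01 over all genes, and 24 of the 35 were below 0. Libraries did not overlap for 13 genes lower in QRICH1 KO and 1 higher, NPLOC4, against 9.06% and 9.41% of all genes.

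OS9 was at 137.4, 146.1 and 136.7 CPM in WT Tm and at 94.5, 88.4 and 78.8 CPM in QRICH1 KO Tm (1.61-fold lower, log2 -0.68, SE 0.112, adjusted p = 0.00484). HM13 was at 1651, 1877 and 1482 CPM in WT Tm and at 1042, 1119 and 1037 CPM in QRICH1 KO Tm (1.57-fold lower, log2 -0.65, SE 0.106, adjusted p = 0.00484). HERPUD1 was at 1701, 1940 and 1828 CPM in WT Tm and at 1254, 1324 and 1105 CPM in QRICH1 KO Tm (1.49-fold lower, log2 -0.57, SE 0.107, adjusted p = 0.0118). For all 3 the highest knockout library was below the lowest WT library. ERLEC1 was at 216.9, 186.7 and 199.8 CPM in WT Tm and at 123.3, 149.3 and 142.1 CPM in QRICH1 KO Tm (1.46-fold lower, log2 -0.54, SE 0.112, adjusted p = 0.0213). Its libraries did not overlap either.

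OS9 (ENSG00000135506) lies on chromosome 12 at 57693955 to 57721557, HM13 (ENSG00000101294) on chromosome 20 at 31514410 to 31577923, HERPUD1 (ENSG00000051108) on chromosome 16 at 56932048 to 56944863 and ERLEC1 (ENSG00000068912) on chromosome 2 at 53787044 to 53818819, all on the plus strand of GRCh38 in GENCODE 29. OS9 shares 699 exon bases with a gene of the opposite strand, AC025165.2, and HM13 shares 242 with HM13-AS1. HM13 also shares exon bases with a gene of its own strand, MCTS2P, and ERLEC1 has a named pseudogene, ERLEC1P1. The libraries do not mark the strand, so reads of such partners cannot be told apart. HERPUD1 has neither. Over all 37 genes, 16 have exons overlapped by a gene of the opposite strand and 6 have a named pseudogene. SYVN1 (with FAU and MIR6751) and ERLIN1 (with CHUK) share exon bases with genes of their own strand, as HM13 does.

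The OS9 and HM13 calls held under all 21 alternatives. HERPUD1 lost its call without WT Tm library 2 (adjusted p = 0.05) or QRICH1 KO Tm library 3 (0.0594), and ERLEC1 without any one of 5 of the 6 Tm libraries (0.0514 to 0.114; WT Tm library 2 was the exception) or with counts scaled by their totals alone (0.0685). Without QRICH1 KO Tm library 3 the count fell to 2, and without both QRICH1 KO libraries 3 it was 5, with DERL2 added (adjusted p = 0.0455) and log2 -0.62 for OS9, -0.64 for HM13, -0.51 for HERPUD1 and -0.57 for ERLEC1. DESeq2 called 7 genes lower, adding DERL1 (adjusted p = 0.0393), DERL2 (0.00945) and UBE2J1 (0.0277), which edgeR placed at log2 -0.31, -0.46 and -0.41 (adjusted p = 0.159, 0.0653 and 0.111).

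Below these 4 genes lay others with the same sign that were not called. EDEM2 (log2 -0.44, adjusted p = 0.167), SEL1L (log2 -0.36, adjusted p = 0.344) and UBXN4 (log2 -0.36, adjusted p = 0.176) were among 11 ERAD genes with an unadjusted p under 0.05. These 11 include the 4 called genes and were all below 0, against 13.4% of all genes in either direction. For EDEM2 and UBXN4 the libraries did not overlap, and for SEL1L they did. SYVN1, the ligase itself, gave log2 -0.19 (95% interval -0.61 to 0.23) and VCP log2 -0.24 (95% interval -0.53 to 0.04). Above 0 lay NPLOC4 (log2 0.22, adjusted p = 0.405), UBE2G1 (log2 0.31, adjusted p = 0.483) and AUP1 (log2 0.16, adjusted p = 0.624), none of them called.

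Without Tm no ERAD gene was called between the genotypes, where 0.0971% of all genes were called, 0.0177% higher and 0.0795% lower. edgeR gave 4 of the 35 (SYVN1, RNF139, AUP1 and UBXN4) an unadjusted p under 0.05, against 9.07% of all genes, and DESeq2 called none. The median log2 fold change was -0.02. AUP1 was at 93.4, 113.9 and 99.9 CPM in WT DMSO and at 135.5, 129.7 and 115.5 CPM in QRICH1 KO DMSO (log2 0.31, 95% interval 0.03 to 0.59, adjusted p = 0.458). It was the 1 gene whose QRICH1 KO libraries were all higher, and UBXN4 (log2 -0.26, adjusted p = 0.536) the 1 whose libraries were all lower, against 7.40% and 6.09% of all genes. SYVN1 was at 10.3, 6.46 and 7.37 CPM in WT DMSO and at 13.7, 11.4 and 9.01 CPM in QRICH1 KO DMSO (log2 0.54, 95% interval 0.06 to 1.02, adjusted p = 0.453), with overlapping libraries. For the 4 genes that were lower under Tm the DMSO values were log2 -0.15 for OS9, 0.12 for HM13, -0.10 for HERPUD1 and -0.07 for ERLEC1, with adjusted p from 0.715 to 0.884.

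**Figure D4:**
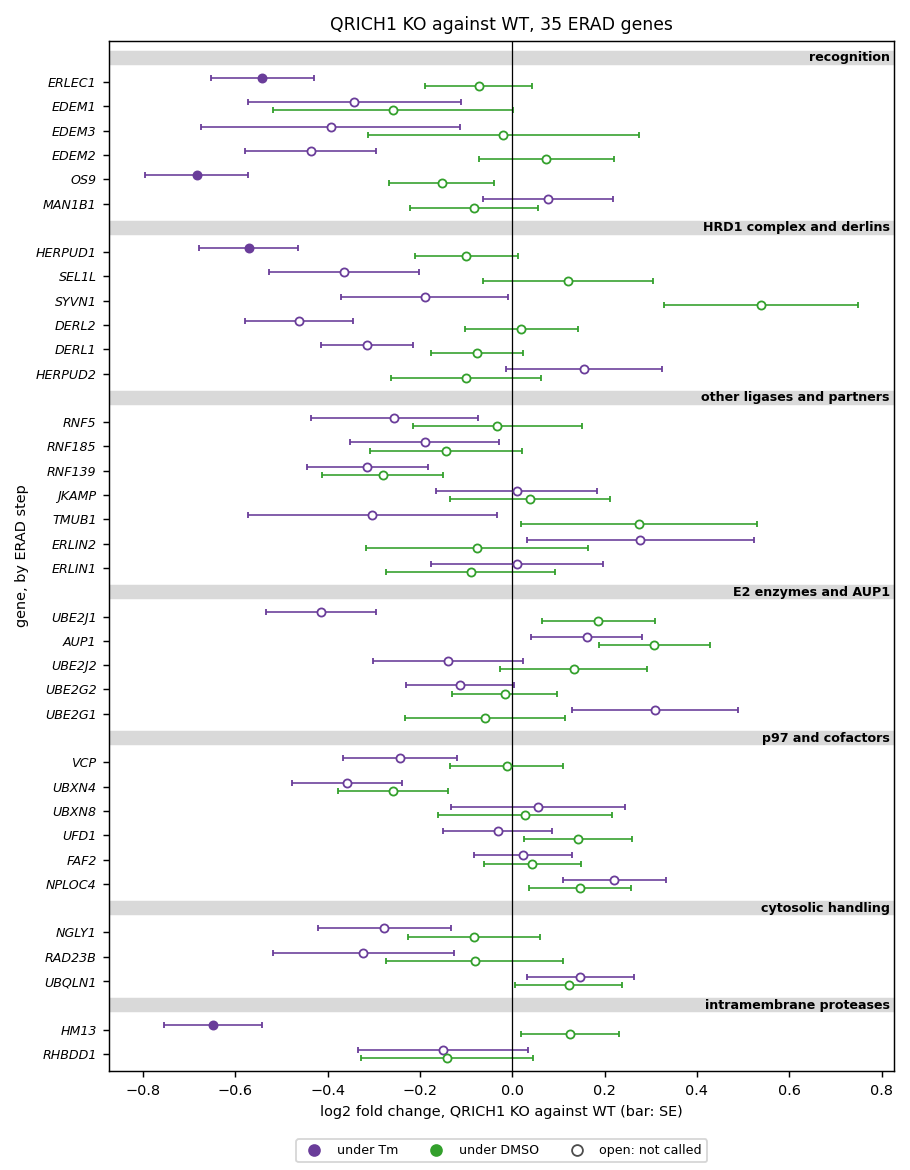
Log2 fold change of QRICH1 KO against WT (x axis, bars give the SE) for the 35 tested ERAD genes, grouped by step (y axis), under Tm (purple) and under DMSO (green), with open points for genes that were not called. OS9, HM13, HERPUD1 and ERLEC1 under Tm, at log2 -0.68, -0.65, -0.57 and -0.54, are the called points.

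Whether the Tm response itself differed between genotypes was tested as an interaction, the response in QRICH1 KO less that in WT. No ERAD gene was called by edgeR, and none of all 11323 genes was (0% higher and 0% lower), with 8 of the 35 and 774 of all genes at an unadjusted p under 0.05. HM13 came nearest among these 35, with a log2 difference of -0.77 (SE 0.15, 95% interval -1.12 to -0.43, adjusted p = 0.0986). DESeq2 called HM13 (log2 -0.78, adjusted p = 0.000319) among 8 higher and 34 lower of all genes. HM13 was also called by edgeR without a filter on low counts (adjusted p = 0.00626) and with counts scaled by their totals alone (0.03), and over all 20 alternatives its adjusted p ran from 0.000319 to 0.378 (log2 difference -0.77 without both QRICH1 KO libraries 3). The other 7 were SYVN1 (log2 difference -0.73, 95% interval -1.37 to -0.09), UBE2J1 (-0.60), OS9 (-0.53), EDEM2 (-0.51), DERL2 (-0.48), HERPUD1 (-0.47) and ERLEC1 (-0.47), with adjusted p from 0.368 to 0.651. None of these was called under any alternative. For SYVN1 the larger part lay in the DMSO groups, where the genotypes differed by log2 0.54, against -0.19 under Tm, neither called.

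All 16 genes called higher in both genotypes had the smaller log2 response in QRICH1 KO, with a median ratio of 0.777 (0.619 for OS9 to 0.957 for EDEM1). Of the 875 genes of any kind called higher in both, 706 (80.7%) had the smaller response in QRICH1 KO, with a median ratio of 0.807, so most induced genes shared the smaller response. Over all 35 tested ERAD genes 27 (77.1%) had the lower log2 response in QRICH1 KO, against 48.8% of all genes. The sign of the difference held under every alternative for 12 of these 16 genes. It changed for EDEM3 under 1 of 20 alternatives (0.04 without QRICH1 KO DMSO library 3), for RNF139 under 6 of 20, and for EDEM1 and RNF185 under 4 of 19 each. For RNF139 and RNF185 these alternatives included counts scaled by their totals alone (log2 difference 0.04 for both). The ratios were near 1 for EDEM1, RNF139 (0.925) and RNF185 (0.922) and lowest for OS9, HM13 (0.639), EDEM2 (0.649), VCP (0.652) and UBE2J1 (0.681). For EDEM1 the 95% interval of the difference was -0.89 to 0.72, which leaves room for a large difference in either direction.

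The rest of the pathway was read from a list of 41 further ERAD genes, of which 39 could be tested. In WT cells Tm raised 8 (20.5%) and lowered 1 of the 39, against 12.6% and 11.1% of all genes. Their median log2 fold change was 0.06. The largest rises were those of SELENOK (7.55-fold) and SELENOS (7.55-fold), selenoproteins that bind p97 and derlins at the ER membrane, and DNAJC10 (3.85-fold), a reductase that opens disulfide bonds of ERAD substrates. The gene that fell was INSIG1 (log2 -0.88, adjusted p = 0.000285), which links sterol level to the degradation of HMG-CoA reductase. In QRICH1 KO cells 6 of the 39 (15.4%) rose and 2 fell, against 9.09% and 6.53% of all genes, with a median of 0.06.

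Under Tm 2 of these 39 genes were lower in QRICH1 KO than in WT and none was higher, against 0.760% and 0.406% of all genes. SELENOS was at 291.5, 337.6 and 334.3 CPM in WT Tm and at 223.3, 205.5 and 191.7 CPM in QRICH1 KO Tm (log2 -0.63, SE 0.103, adjusted p = 0.00484). SELENOK was at 77.8, 81.9 and 81.0 CPM in WT Tm and at 56.3, 53.5 and 51.3 CPM in QRICH1 KO Tm (log2 -0.58, SE 0.137, adjusted p = 0.0465). For both genes every knockout library was below every WT library. Their interaction values were -0.82 for SELENOS and -1.16 for SELENOK, each with an adjusted p of 0.0721, so neither was called. These values also take in the DMSO levels. SELENOS was at 40.4, 41.65 and 45.4 CPM in WT DMSO and at 50.5, 46.2 and 48.5 CPM in QRICH1 KO DMSO. SELENOK was at 7.62, 10.5 and 13.1 CPM in WT DMSO and at 14.9, 17.2 and 15.45 CPM in QRICH1 KO DMSO. Neither was called between the genotypes under DMSO.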

How the data were processed

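The members and the lists of further ERAD genes, markers and motifs were chosen with earlier results of these data known. Per the labels' protocols, cDNA was made by a modified Smart-seq2 method and libraries by Nextera XT tagmentation, which does not mark strand. The authors deposited whole-number read counts per gene, unnormalised, for all 12 libraries. The submitters' processing notes name the tools STAR, Trimmomatic and DESeq2 and the build hg38. Versions, roles, the counting tool and how it treated strand and reads with several matches are not given in the sources used, so reads of paralogs, pseudogenes and antisense partners may be split or lost.

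Ensembl IDs were matched without version to gene symbols (19875 of 20015) and to GENCODE 29 (19954 of 20015), from which positions on GRCh38 came. Counts were scaled with TMM factors, filtered with filterByExpr at a minimum count of 10 (11323 genes left, 35 of the 37) and fitted by edgeR 4.0.16 in R 4.3.3 with 4 group means over all 12 libraries. p-values are from its two-sided quasi-likelihood test, adjusted by Benjamini and Hochberg's method across the genes tested. SEs come from the quasi-likelihood F statistic, and 95% intervals use 8 residual degrees of freedom. Since separate cultures are not stated, p-values measure the spread between these libraries. No pair of libraries within a group agreed within sampling noise (chi-square per degree of freedom 8.64 to 35.8). The fit was tested on simulated data with known changes in the WT Tm group alone. Every simulated gene had the same dispersion, so the differences in spread between real genes and libraries were not copied.

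The text names all 37 members. CPM in every library is given for the 2 members of each step with the largest absolute log2 fold change for Tm in WT and for those called between genotypes, and for SYVN1, HERPUD2 and EDEM3 in part, which were added after their values were seen. Of the further ERAD genes it names the 3 largest rises and falls called in WT and those called between genotypes. A gene of that list is not reported here and was left out of its counts. Alternatives were other normalizations, other filters, DESeq2 1.42.0, fits to the 2 groups compared, a replicate block and leaving out libraries. RefSeq promoters on GRCh38.p14 were given for 28 members in 33 windows.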

Additional observations from a re-analysis of the deposited data

How the results depend on the processing

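The counts of ERAD genes called higher with Tm stayed within 1.5 times of the main ones, at 15 to 18 in WT and 12 to 16 in QRICH1 KO with each library left out. Genes called lower in WT, 0 in the main analysis, numbered 1 with upper-quartile factors or a minimum count of 30 (NPLOC4), 2 with counts scaled by their totals alone (HERPUD2 and NPLOC4), 1 without both QRICH1 KO libraries 3 (HERPUD2) and 0 to 2 with each library left out. In QRICH1 KO it was 1 with upper-quartile factors (UBE2G2) and 0 to 1 with each library left out. Between genotypes under Tm the 4 genes called lower became 7 with DESeq2 and 2 to 5 with each library left out. In the interaction, 1 gene (HM13) was called lower with DESeq2, without a filter, or with total counts alone. Scaling by total counts moved the median of all genes to -0.21 in WT and -0.11 in QRICH1 KO, and the share of calls that were higher from 53.2% to 28.5% in WT and from 58.2% to 36.3% in QRICH1 KO. Over all genes, DESeq2 called 23 higher and 35 lower between genotypes under DMSO, and 89 higher and 200 lower under Tm.

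None of the ERAD genes called in a comparison changed sign in it under any alternative. Log2 values that were not called did, and the cause was not tested. For Tm in WT the sign changed for 4 genes. With each library left out the ranges that crossed 0 were those of ERLIN2 (-0.22 to 0.24), TMUB1 (-0.13 to 0.20) and UBE2J2 (-0.15 to 0.18). With total counts alone the value was -0.11 for FAF2. With the replicate block the value was 0.0029 for UBE2J2. For Tm in QRICH1 KO it changed for 7 genes, with each library left out for MAN1B1 (-0.086 to 0.15), ERLIN1 (-0.30 to 0.078), UBE2G1 (-0.029 to 0.052), UFD1 (-0.092 to 0.097), NGLY1 (-0.098 to 0.080) and RAD23B (-0.14 to 0.11). With upper-quartile factors the value was -0.0035 for MAN1B1, -0.021 for UBE2G1, -0.024 for UFD1 and -0.023 for NGLY1. With total counts alone the value was -0.070 for MAN1B1, -0.085 for UBE2G1, -0.089 for UFD1, -0.055 for FAF2 and -0.091 for NGLY1. Without both QRICH1 KO libraries 3 the value was -0.00095 for UBE2G1 and 0.089 for RAD23B. Between genotypes under Tm it changed for 7 genes, with each library left out for MAN1B1 (-0.043 to 0.19), JKAMP (-0.034 to 0.034), ERLIN1 (-0.21 to 0.16), ERLIN2 (-0.017 to 0.47), UFD1 (-0.14 to 0.051), FAF2 (-0.049 to 0.083) and UBXN8 (-0.056 to 0.17). With DESeq2's size factors in edgeR the value was -0.011 for JKAMP and -0.011 for ERLIN1. With total counts alone the value was 0.029 for UFD1. With DESeq2 the value was -0.011 for JKAMP and -0.0085 for ERLIN1. Without both QRICH1 KO libraries 3 the value was -0.040 for JKAMP, -0.21 for ERLIN1 and 0.045 for UFD1. With the replicate block the value was -0.0036 for JKAMP and -0.031 for ERLIN1. Under DMSO it changed for 18 genes, with each library left out for ERLEC1 (-0.16 to 0.0019), EDEM2 (-0.045 to 0.20), EDEM3 (-0.43 to 0.29), SEL1L (-0.023 to 0.23), HERPUD2 (-0.21 to 0.020), DERL2 (-0.081 to 0.11), RNF5 (-0.18 to 0.041), JKAMP (-0.12 to 0.34), ERLIN1 (-0.25 to 0.068), ERLIN2 (-0.24 to 0.22), TMUB1 (-0.081 to 0.51), UBE2J2 (-0.0060 to 0.32), UBE2G1 (-0.22 to 0.14), UBE2G2 (-0.083 to 0.036), VCP (-0.12 to 0.097), FAF2 (-0.0098 to 0.070), UBXN8 (-0.034 to 0.10) and NGLY1 (-0.15 to 0.030). Without both QRICH1 KO libraries 3 the value was -0.057 for EDEM2, -0.039 for SEL1L, 0.026 for RNF5, -0.071 for JKAMP and 0.024 for VCP. In the interaction it changed for 10 genes, with each library left out for EDEM1 (-0.33 to 0.15), EDEM3 (-0.68 to 0.040), RNF139 (-0.13 to 0.051), RNF185 (-0.17 to 0.045), JKAMP (-0.33 to 0.13), ERLIN1 (-0.12 to 0.26), FAF2 (-0.083 to 0.041), UBXN8 (-0.073 to 0.14), UBQLN1 (-0.078 to 0.11) and RHBDD1 (-0.14 to 0.081). With total counts alone the value was 0.041 for RNF139, 0.042 for RNF185, 0.061 for JKAMP, 0.058 for FAF2 and 0.072 for RHBDD1. Without both QRICH1 KO libraries 3 the value was 0.031 for RNF139, 0.031 for JKAMP, 0.032 for FAF2 and 0.079 for RHBDD1.

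With the replicate block the counts were 18 higher in WT, 16 higher in QRICH1 KO, 4 lower between genotypes under Tm and 0 elsewhere. Whether the numbers pair the libraries cannot be told from their correlations. Same-numbered libraries correlated at -0.186 to 0.265, over 0.1 in 6 of 18 pairs, and libraries of other numbers at -0.241 to 0.226. None of the 6 pairs included a WT Tm library. Intervals for Tm in WT were wide for genes of few counts such as ERLIN2 (SE 0.247), TMUB1 (0.265) and RAD23B (0.194). They were also wide for EDEM1 (0.25), likewise of few counts in the WT DMSO libraries (57, 75 and 104), and for EDEM3 (0.291). The cause was not tested.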
